A study of Homo sapiens with 24 samples.

Results

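Aminoacyl-tRNA synthetases join each amino acid to the transfer RNA that carries it to the ribosome. The set described here holds 35 genes listed by name, 19 for cytosolic enzymes and 16 for mitochondrial ones; the rule uses no measured value, but it was drawn up with earlier results of these data known. A gene was measured through a probe set, the group of short probes that gives 1 value on the array, annotated to that gene alone. Of the 35 genes, 32 had such a probe set, 17 cytosolic and 15 mitochondrial, among 19735 genes in the whole series. Where a gene had several, which was so for 18 of the 32, the probe set with the highest mean log2 signal over all arrays was used. MARS1, QARS1 and TARS2 are covered only by probe sets annotated to a further gene as well, and their expression was not analysed here.

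Cells keep separate synthetases for the cytosol and for mitochondria, and both kinds are encoded in the nucleus. The gene for a mitochondrial enzyme usually has a name that ends in 2, whereas GARS1 and KARS1 each give rise to the glycyl and lysyl enzymes of both compartments. Several cytosolic enzymes are held together in a multi-synthetase complex. When amino acids run short, the transcription factor ATF4 is made and activates many cytosolic synthetase genes through a short DNA site called CARE, the C/EBP-ATF response element. WARS1, the cytosolic tryptophanyl enzyme, is in addition a classic gene of the response to interferon gamma.

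The data come from MV4-11 and MOLM-14, human acute myeloid leukemia lines that carry FLT3-ITD, an activating internal duplication in the receptor kinase FLT3; per the study's description of the lines, a wild-type FLT3 allele is also present in MOLM-14. Each line was treated for 24 hours with DMSO (the vehicle), with ABT-869 at 3 nM, an inhibitor of FLT3 and other receptor tyrosine kinases, with SAHA at 6 µM, an inhibitor of histone deacetylases, or with both drugs, called Combination, whose doses are not restated. There were 3 arrays for each of the 8 groups, described by the study as biological triplicates. RNA was measured on Affymetrix U133 Plus 2.0 arrays, and a signal below is the deposited linear value of a probe set. Each line stands for 1 cell culture model only, and a difference between the lines cannot be tied to any single feature of them.

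The deposited signals had been scaled to a 2% trimmed mean of 500.06 to 500.07 on every array, so a signal is relative to the rest of the RNA, and fewer expressing cells cannot be told apart from less RNA per cell. RNA integrity was read from 3'/5' signal ratios, which ranged from 0.923 to 1.06 for GAPDH and from 1.061 to 1.375 for ACTB. All 6 myeloid leukemia markers were measured, with signals from 10510.6 to 16736.1 for FLT3, 10939.1 to 18698.3 for LYZ, 4197.3 to 7344.7 for PTPRC, 1230.0 to 1983.0 for MEIS1, 920.3 to 2985.6 for SPI1 and 210.6 to 3109.3 for MPO. MPO, the myeloperoxidase gene, fell in MOLM-14 with SAHA (−2.74) and Combination (−2.87) on the log2 scale, and its part in the results there was not tested. Of 4 markers of other cells, EPCAM reached at most 48.1, ALB 82.2 and CD3E 139, and COL1A1, a collagen gene of fibroblasts, lay between 227.5 and 579.5. Per group, the array farthest from its group was counted as standing apart when its deviation exceeded 0.3 (SD, log2 scale), which held for ABT-869 replicate 2 and Combination replicate 3 of MV4-11, and for Combination replicate 1 and DMSO replicate 3 of MOLM-14. A comparison was called at an adjusted p under 0.05 from limma, with 1 fit per line over 12 arrays and adjustment over 54613 probe sets. Below, rose and fell are used for such calls. Counts at an unadjusted p under 0.05 are given for members and listed genes only, without the share of all probe sets at that limit.

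Promoter letters of the family are shown first, since CARE is the site through which ATF4 acts on this family. A RefSeq promoter window on the GRCh38.p14 build, running from 250 bases before a start site to 50 after it, was at hand for 30 of the 35 genes. The letters of the CARE core, TGATGNAA on either strand, occurred in the windows of 7 of 16 cytosolic members (43.8%) and of 1 of 14 mitochondrial members (7.14%), against 1217 of 27305 genes with a window (4.46%). These are matches of letters, and no binding was measured. The stretches below are shown because they hold the match in the cytosolic members whose expression is described next, and in YARS2, the single mitochondrial member with a match; each reads 5′ to 3′ along the gene, with the match in capitals.
AARS1: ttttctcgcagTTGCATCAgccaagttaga
CARS1: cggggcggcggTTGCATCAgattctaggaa
GARS1: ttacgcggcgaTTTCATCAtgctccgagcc
IARS1: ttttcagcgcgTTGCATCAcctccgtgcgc
NARS1: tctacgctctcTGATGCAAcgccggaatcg
TARS1: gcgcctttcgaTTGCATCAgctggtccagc
YARS2: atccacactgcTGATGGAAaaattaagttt
The AARS1 stretch lies at chr16:70289675-70289704 on the minus strand, with the match 187 bases before the start. Those of CARS1 (chr11:3057407-3057436, minus strand), IARS1 (chr9:92293692-92293721, minus strand) and GARS1 (chr7:30594834-30594863, plus strand) put the match 2, 13 and 33 bases before a start. In NARS1 (chr18:57621804-57621833, minus strand) and TARS1 (chr5:33440956-33440985, plus strand) it lies just inside the transcript. YARS2 holds its match at chr12:32756076-32756105 on the minus strand, 197 bases before the start. All but NARS1 and YARS2 carry the core on the strand opposite to the gene. MARS1, which was not measured alone, has a match 4 bases before its start.

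The WARS1 window was searched for the letters of the interferon site ISRE, which are GAAA, any pair of bases and GAAA again, and of the STAT site GAS, TTCNNNGAA, each on both strands. Both occurred before a start on the minus strand of chromosome 14, the former 55 bases and the latter 142 bases upstream, and the stretches are printed because WARS1 is the member with the largest change with ABT-869 in MV4-11.
WARS1 ISRE: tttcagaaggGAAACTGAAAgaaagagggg
WARS1 GAS: gctcaagtgtTTCTGAGAAtctgggtgatt
The first spans chr14:100375383-100375412 and the second chr14:100375470-100375499. ISRE letters occurred in 1 of 16 cytosolic and 1 of 14 mitochondrial windows (EARS2) and in 4.38% of genes. GAS letters occurred in 3 of 16 and 2 of 14 windows and in 9.38% of genes.

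In MV4-11 cells, ABT-869 lowered 4 of the 17 cytosolic members, WARS1, GARS1, YARS1 and AARS1, and none rose. Over all probe sets 0.491% fell and 0.372% rose. No mitochondrial member passed the limma test (4 of 15 were higher at an unadjusted p under 0.05 and none lower, and 2 of 15 rose with limma-trend). With limma-trend 1090 of all 54613 probe sets rose and 1067 fell. The median log2 change was −0.19 over the cytosolic members, 0.15 over the mitochondrial members and 0.05 over all probe sets. In 10 of the 17 cytosolic members every treated array lay below every DMSO array, against 9.29% of all probe sets. The count of 4 fell to 1 without any of the DMSO arrays, or without ABT-869 replicate 1 or 3, and to 2 without ABT-869 replicate 2 or SAHA replicate 2; WARS1 kept its call in every alternative run.

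**Figure D1:**
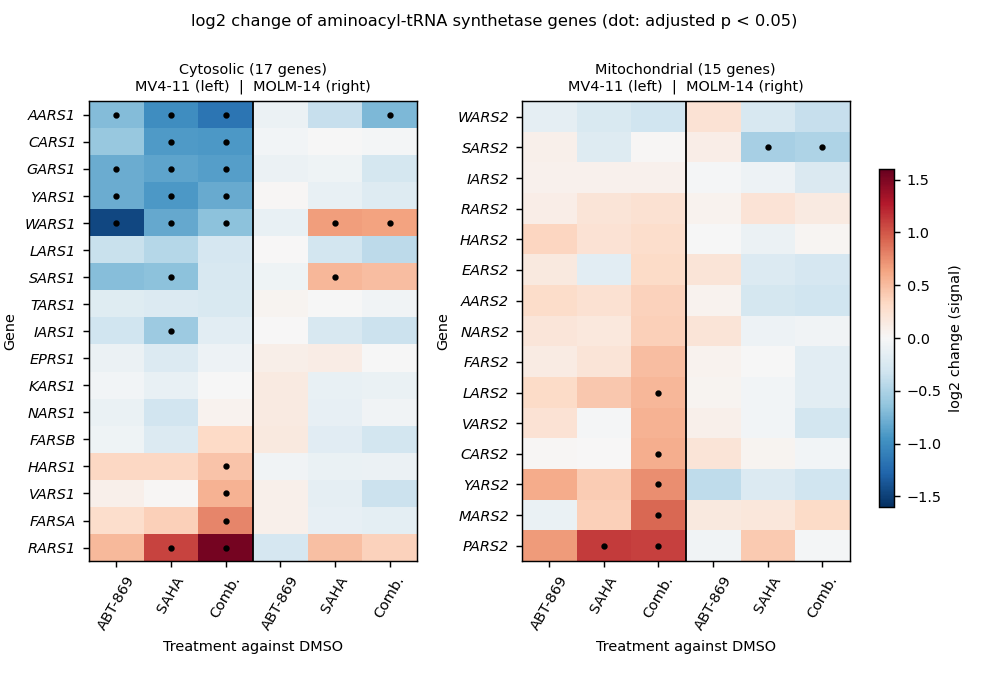
Log2 change of the signal against DMSO (colour, scale at the right) for the 17 cytosolic genes (left panel) and the 15 mitochondrial genes (right panel), with MV4-11 in the 3 left columns and MOLM-14 in the 3 right columns of each panel; a dot marks an adjusted p under 0.05. Falls fill the upper left of the cytosolic panel in MV4-11, and in the mitochondrial panel the calls in MV4-11 are rises.

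WARS1 showed the largest change with ABT-869 among the members. Its signals on the 3 MV4-11 DMSO arrays were 4021.7, 4053.5 and 4216.8. With ABT-869 they were 1588.2, 1483.8 and 1411.8, with SAHA 2243.5, 2168.3 and 2580.1, and with Combination 2586.3, 2494.8 and 2735.1. All 9 treated arrays lay below all DMSO arrays, and the ABT-869 arrays lay below those of both other treatments. The fall with ABT-869 was −1.46 on the log2 scale (SE 0.116, adjusted p = 0.00188), or 2.74-fold, from 4097 ± 105 to 1495 ± 88.7 (SD, n = 3 each). With SAHA the log2 change was −0.82 (adjusted p = 0.00969) and with Combination −0.65 (adjusted p = 0.00887). The second probe set of WARS1 gave −1.24, −0.79 and −0.63 for the 3 treatments. Combination was thus higher than ABT-869 alone, by 0.80 (SE 0.116, adjusted p = 0.00839). The departure of Combination from the sum of both single-drug changes was 1.62 (SE 0.163, adjusted p = 0.0230), and WARS1 was the only member with such a call, where 0.0220% of all probe sets had one. That call was lost when any of 11 of the 12 arrays was left out. At an unadjusted p under 0.05, the departure in MV4-11 was above 0 in 11 of 17 cytosolic members and below 0 in none. Of 15 mitochondrial members, 1 was above 0 and 1 below at that limit. The share of all probe sets at that limit was not counted. The median departure was 0.52 over the cytosolic members, 0.02 over the mitochondrial ones and −0.02 over all probe sets. In MOLM-14 no member departed from the sum (0 at an unadjusted p under 0.05 and 0 by limma-trend), where 0.0128% of all probe sets did.

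WARS2, the mitochondrial tryptophanyl enzyme, did not pass in any comparison with DMSO. Its MV4-11 signals were 606.3, 603.1 and 670.9 with DMSO and 572.7, 580.3 and 546.7 with ABT-869, a log2 change of −0.14 (SE 0.130, adjusted p = 0.705). The groups did not overlap, and the gap between them was small beside the spread. With SAHA (549.1, 515.3 and 517.3) the change was −0.25, and with Combination (578.4, 500.5 and 432.8) it was −0.32.

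AARS1, the alanyl enzyme, was lowered by every treatment in MV4-11. Its signals were 7708.2, 7109.3 and 7960.5 with DMSO, 4642.2, 4934.9 and 4501.4 with ABT-869, 3489.2, 3865.6 and 4097.4 with SAHA, and 3145.7, 3451.0 and 3578.0 with Combination. No treated array reached a DMSO array. The log2 changes were −0.69 (SE 0.118, adjusted p = 0.0354), −0.99 (adjusted p = 0.00461) and −1.16 (adjusted p = 0.000767). The fall with ABT-869 lost its call when any of 11 of the 12 arrays was left out, whereas those with SAHA and Combination passed in every alternative.

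GARS1, which supplies the glycyl enzyme of both compartments, is listed with the cytosolic members and fell with every drug. Its signals were 8523.5, 8038.3 and 8180.5 with DMSO, 4914.0, 4731.6 and 4587.3 with ABT-869, 4184.1, 4476.8 and 5192.4 with SAHA, and 4283.8, 4968.8 and 4169.3 with Combination. The 3 treatments overlapped each other and lay below DMSO throughout. The log2 changes were −0.80 (SE 0.126, adjusted p = 0.0279), −0.84 (adjusted p = 0.0122) and −0.89 (adjusted p = 0.00331). KARS1, which likewise serves both compartments with the lysyl enzyme, gave 21671.3, 21088.7 and 20769.9 with DMSO and 19593.8, 23340.8 and 19109.8 with ABT-869. With SAHA it gave 19645.5, 19246.7 and 19683.5, and with Combination 18957.1, 21650.3 and 22998.6. Only the SAHA arrays lay clear of DMSO, and its log2 changes in MV4-11 were −0.04, −0.12 and −0.00 (SE 0.125 each; adjusted p = 0.931, 0.722 and 0.994).

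YARS1 and CARS1, the tyrosyl and cysteinyl enzymes of the cytosol, showed falls of like size. YARS1 read 6140.4, 6246.3 and 6265.9 with DMSO, 3650.3, 3712.0 and 3388.8 with ABT-869, 3156.8, 3246.1 and 3502.0 with SAHA, and 3306.4, 3571.8 and 3808.4 with Combination. Every treated array was lower than every DMSO array, and the log2 changes were −0.80, −0.91 and −0.81 (SE 0.110; adjusted p = 0.0149, 0.00476 and 0.00274). A second, dimmer YARS1 probe set gave 0.23, 0.035 and 0.52 for the same comparisons (adjusted p = 0.761, 0.968 and 0.256), so the direction for YARS1 rests on the brighter probe set. For CARS1 the signals were 5733.4, 5745.5 and 5930.9 with DMSO, 3528.2, 4318.5 and 3637.3 with ABT-869, 2978.3, 2929.3 and 3385.3 with SAHA, and 3026.3, 2802.5 and 3449.5 with Combination. The treated CARS1 arrays did not overlap DMSO either; the change with ABT-869 missed the threshold (−0.61, adjusted p = 0.0845), and those with SAHA (−0.91, adjusted p = 0.0114) and Combination (−0.91, adjusted p = 0.00376) passed.

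**Figure D2:**
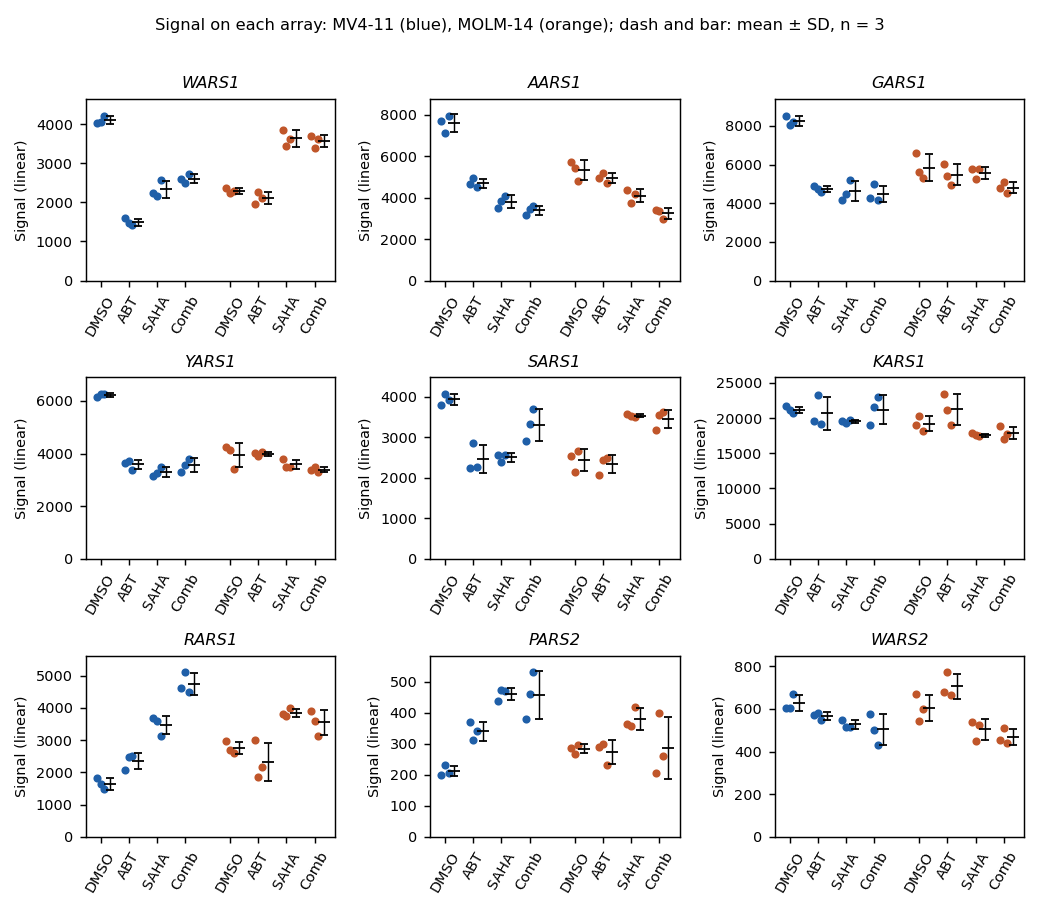
Linear signal on each array (points) for 9 members in MV4-11 (blue) and MOLM-14 (orange) by treatment, with the mean and SD of the 3 arrays beside the points; axes start at 0. WARS1 falls in MV4-11 with every drug and is higher in MOLM-14 with SAHA and Combination, while RARS1 climbs in MV4-11 to 4734 ± 330 with Combination.

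SAHA changed more of the family in MV4-11. Of the 17 cytosolic members, 7 fell (AARS1, YARS1, CARS1, GARS1, WARS1, SARS1 and IARS1) and RARS1 rose, and of the 15 mitochondrial members PARS2 rose and none fell (none was lower at an unadjusted p under 0.05 either). Among all probe sets 0.996% fell and 1.47% rose. The class medians were −0.31 and 0.20, against −0.05 for all probe sets. IARS1, the isoleucyl enzyme, changed by −0.58 (SE 0.110, adjusted p = 0.0305). SARS1, the seryl enzyme, gave 3801.0, 4072.4 and 3931.7 with DMSO, 2252.2, 2864.2 and 2260.7 with ABT-869, 2572.4, 2379.0 and 2565.9 with SAHA, and 2915.5, 3317.1 and 3701.3 with Combination. Its treated arrays lay below DMSO in each case, but only the change with SAHA passed (−0.65, adjusted p = 0.0482), next to −0.69 with ABT-869 (adjusted p = 0.0679) and −0.26 with Combination (adjusted p = 0.329). The count of 9 members called fell to 5 without SAHA replicate 1 and to 4 without SAHA replicate 2. After centring each array on its median, 4 cytosolic members fell and 1 rose, and 1 mitochondrial member rose. In that setting 190 of 54613 probe sets fell and 536 rose.

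RARS1 and PARS2 went the other way. RARS1 encodes the arginyl enzyme of the cytosol, a part of the multi-synthetase complex, and its signals were 1833.7, 1630.9 and 1473.2 with DMSO, 2069.6, 2486.7 and 2502.4 with ABT-869, 3673.1, 3593.6 and 3140.0 with SAHA, and 4617.9, 5105.7 and 4477.5 with Combination. The 4 groups followed each other without overlap, from DMSO at the bottom to Combination at the top. Its log2 changes were 0.52 (SE 0.140, adjusted p = 0.154) with ABT-869, 1.08 (adjusted p = 0.00680) with SAHA and 1.53 (adjusted p = 0.000496), or 2.88-fold, with Combination. PARS2, the mitochondrial prolyl enzyme, read 199.5, 231.5 and 206.7 with DMSO, 371.7, 311.3 and 339.7 with ABT-869, 439.0, 473.9 and 469.7 with SAHA, and 378.9, 460.9 and 530.9 with Combination. Its treated arrays all exceeded its DMSO arrays, and SAHA and Combination overlapped. The log2 changes were 0.68 (SE 0.149, adjusted p = 0.0833), 1.12 (adjusted p = 0.00773) and 1.09 (adjusted p = 0.00274). The rises of both genes with SAHA and with Combination passed in every alternative run; each gene has 1 probe set here.

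With Combination in MV4-11 both compartments held rises. Of 17 cytosolic members 5 fell (AARS1, CARS1, GARS1, YARS1 and WARS1) and 4 rose (RARS1, FARSA, VARS1 and HARS1). Of 15 mitochondrial members 5 rose (PARS2, MARS2, YARS2, CARS2 and LARS2) and none fell. Among all probe sets 4.05% fell and 4.89% rose. The medians were −0.17 for the cytosolic members and 0.39 for the mitochondrial ones, beside −0.02 for all probe sets, and WARS2 was the 1 mitochondrial member with a change below 0. The count of 14 members fell to 9 without Combination replicate 1 or DMSO replicate 1 and to 8 without DMSO replicate 2.

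FARSA, a subunit of the phenylalanyl enzyme, changed by 0.78 (SE 0.114, adjusted p = 0.00392). Its partner subunit FARSB did not pass (0.32, adjusted p = 0.168), although a second, dimmer FARSB probe set gave 1.69 (adjusted p = 0.0133). VARS1, the valyl enzyme, changed by 0.56 (adjusted p = 0.0198). Over the alternative runs the VARS1 change ranged from 0.37 to 0.60 (limma, adjusted p up to 0.247), and 5 of 21 runs lost the call. HARS1, the histidyl enzyme, changed by 0.46 (adjusted p = 0.0320). The mitochondrial gene HARS2, its neighbour, gave 0.28 (adjusted p = 0.373). HARS1 and HARS2 start back to back, 84 bases apart on chromosome 5, and the stretch between the starts (chr5:140691371-140691454, plus strand, 59.5% G or C) is printed because a cytosolic and a mitochondrial member share it.
HARS1-HARS2: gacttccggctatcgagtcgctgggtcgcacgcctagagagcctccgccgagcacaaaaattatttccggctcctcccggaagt

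Among the mitochondrial rises, YARS2, the tyrosyl enzyme, had DMSO signals of 497.1, 404.6 and 482.5 and Combination signals of 826.1, 654.7 and 843.4. Its signals were 710.0, 756.6 and 616.7 with ABT-869 and 658.0, 587.8 and 578.5 with SAHA. All treated arrays stood above DMSO, and the log2 change passed with Combination alone, at 0.74 (SE 0.152, adjusted p = 0.0170). MARS2, the methionyl enzyme, changed by 0.91 (SE 0.219, adjusted p = 0.0327), CARS2 by 0.58 (adjusted p = 0.0251) and LARS2, the leucyl enzyme, by 0.53 (adjusted p = 0.0221). The second probe sets of CARS2 and LARS2 gave 0.02 and 0.39 and did not pass. SARS2, the mitochondrial seryl enzyme, had DMSO signals of 1132.6, 1120.9 and 1160.0 in MV4-11. They were 1155.5, 1398.9 and 1083.2 with ABT-869, 983.9, 981.0 and 984.7 with SAHA, and 1152.5, 1067.7 and 1239.4 with Combination. Only the SAHA arrays were clear of DMSO, and no change passed (0.08, −0.21 and 0.02).

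**Figure D3:**
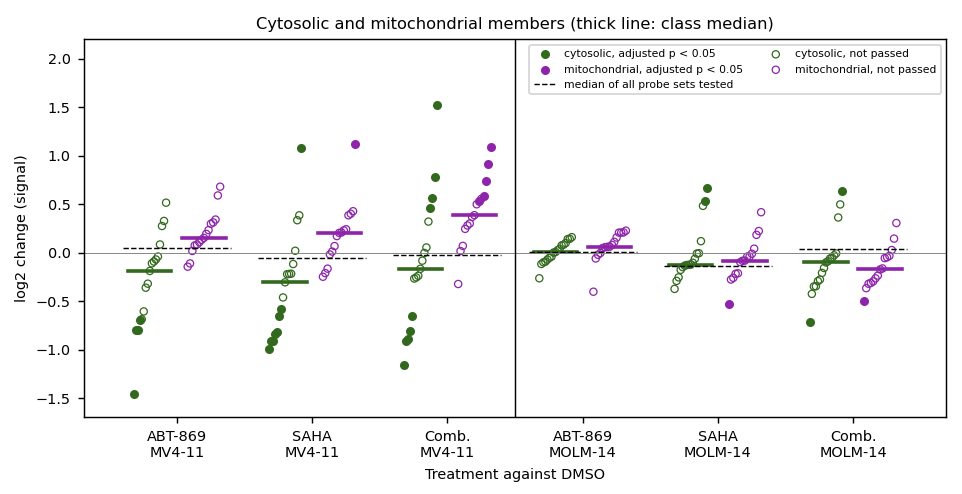
Log2 change against DMSO for each cytosolic (green) and mitochondrial (purple) member, by treatment and line; filled points have an adjusted p under 0.05, thick lines are class medians and dashed lines the median of all 54613 probe sets. In MV4-11 the mitochondrial medians (0.15, 0.20 and 0.39) lie above the cytosolic ones (−0.19, −0.31 and −0.17), and in MOLM-14 the classes lie close together.

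For 11 amino acids both enzymes were measured, and in MV4-11 the change of the cytosolic gene was the lower of the pair in 10 of 11 pairs with ABT-869, 8 with SAHA and 8 with Combination. The median difference within pairs was −0.62, −0.57 and −0.33 on the log2 scale. With Combination the wide gaps were those of the alanyl pair (−1.16 for AARS1 and 0.37 for AARS2), the cysteinyl pair (−0.91 for CARS1 and 0.58 for CARS2) and the tyrosyl pair (−0.81 for YARS1 and 0.74 for YARS2). The tyrosyl gap rests on the brighter YARS1 probe set, since the second one gave 0.52, and the second CARS2 probe set gave 0.02. The arginyl pair ran the opposite way, at 1.53 for RARS1 and 0.25 for RARS2. In MOLM-14 the cytosolic gene had the lower change in 8 of 11 pairs with ABT-869, 7 with SAHA and 6 with Combination. The median differences within pairs there were −0.07, −0.05 and −0.003. These differences between probe sets are descriptions and were not tested.

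Within the cytosol, the 5 measured members of the multi-synthetase complex (EPRS1, IARS1, KARS1, LARS1 and RARS1) had a median log2 change of −0.08 with Combination in MV4-11, with 0 falls and 1 rise, where 4.05% of all probe sets fell and 4.89% rose. The 12 other cytosolic members had a median of −0.25, with 5 falls and 3 rises. Split by enzyme class, which reflects the fold of the catalytic domain, the 9 class I mitochondrial members gave 4 rises with Combination and the 6 of class II gave 1. Among the 14 measured cytosolic members with a promoter window, the 6 with the CARE letters (AARS1, CARS1, GARS1, IARS1, NARS1 and TARS1) had a median change of −0.71 with SAHA in MV4-11, with 4 falls, where 0.996% of all probe sets fell and 1.47% rose. The 8 without them had a median of −0.17, with 2 falls and 1 rise. With Combination the medians were −0.56 and 0.16, and with ABT-869 −0.46 and −0.05. WARS1 and SARS1 fell with SAHA without holding the CARE letters in their windows, and TARS1 (−0.22) and NARS1 (−0.31) held them and did not pass. Of the genes that fell, YARS1 had no window to search. None of these differences between subgroups was tested.

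In MOLM-14 cells no member passed with ABT-869 (0 of 32 by limma and by limma-trend, and 0 at an unadjusted p under 0.05), where 0.0165% of all probe sets passed. The log2 changes ran from −0.40 for YARS2 to 0.23 for WARS2. For GARS1 the MOLM-14 signals were 6607.4, 5627.7 and 5303.9 with DMSO and 6051.8, 5428.8 and 4952.8 with ABT-869, which overlapped. GARS1 gave 5762.1, 5228.9 and 5743.1 with SAHA, and its 4794.0, 5092.0 and 4537.8 with Combination were below every DMSO array (−0.28, adjusted p = 0.281). WARS1 read 2361.2, 2231.5 and 2281.0 with DMSO and 1961.5, 2267.9 and 2120.3 with ABT-869, again with overlap (log2 change −0.12, adjusted p = 0.843). AARS1 read 4943.0, 5210.4 and 4706.1 with ABT-869, SARS1 2075.4, 2433.6 and 2486.6, and SARS2 1298.0, 1361.8 and 1432.1, each overlapping the DMSO arrays given below.

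With SAHA in MOLM-14, WARS1 and SARS1 rose and SARS2 fell, against 2.74% of all probe sets that rose and 2.58% that fell. WARS1 reached 3861.0, 3434.2 and 3633.1, above every DMSO array, a log2 change of 0.67 (SE 0.104, adjusted p = 0.0112). Its second probe set gave 0.62 (adjusted p = 0.0334). SARS1 went from 2538.1, 2147.4 and 2668.9 to 3578.3, 3514.9 and 3504.7, again without overlap (0.53, adjusted p = 0.0420), whereas its second, dimmer probe set gave −0.21 (adjusted p = 0.314). SARS2 went from 1270.7, 1306.8 and 1207.9 to 928.5, 835.1 and 853.5, all lower (−0.53, SE 0.0987, adjusted p = 0.0189). The median of all probe sets was itself at −0.14 in this comparison. Centring each array on its median moved it to 0.11, with 525 of 54613 probe sets lower and 3884 higher. In that setting SARS2 was at −0.28 and did not pass, 3 cytosolic members and 1 mitochondrial member rose, and none fell. The count of 3 members fell to 0 without MOLM-14 DMSO replicate 2 and to 1 without DMSO replicate 1, SAHA replicate 2 or SAHA replicate 3.

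With Combination in MOLM-14, AARS1 and SARS2 fell and WARS1 rose, where 2.80% of all probe sets fell and 3.15% rose. AARS1 read 5744.8, 5414.3 and 4796.1 with DMSO, 4350.6, 3754.1 and 4200.2 with SAHA, and 3417.7, 3348.8 and 2953.3 with Combination. The Combination arrays lay below all others, and the log2 change was −0.71 (SE 0.120, adjusted p = 0.0109); with SAHA it was −0.37 (adjusted p = 0.111). Leaving out no array ended the AARS1 call. WARS1 gave 3688.1, 3396.8 and 3634.0 (0.64, adjusted p = 0.00979) and SARS2 gave 881.5, 926.6 and 878.5 (−0.49, adjusted p = 0.0211), both clear of DMSO. SARS1, at 3189.4, 3552.7 and 3615.0, also exceeded its DMSO arrays but missed the threshold (0.50, adjusted p = 0.0502). Without the 4 arrays that stood apart, 1 member passed in place of 3.

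Of the members called in MV4-11, AARS1, SARS1 and WARS1 thus passed against DMSO in MOLM-14 too, SARS1 and WARS1 in the opposite direction, and the others did not pass there with any treatment. The SARS1 call with SAHA was lost when any of 10 of the 12 arrays was left out in MV4-11. In MOLM-14 any of 11 of the 12 arrays ended it. CARS1 in MOLM-14 had DMSO signals of 4074.6, 4103.4 and 4287.4 and Combination signals of 4053.5, 4144.5 and 4029.6, which overlapped. It also overlapped DMSO with ABT-869 (3633.1, 4201.9 and 4310.8) and with SAHA (4525.1, 4014.5 and 3900.9). YARS1 had 4259.8, 4148.2 and 3403.7 with DMSO and 3390.2, 3504.6 and 3281.0 with Combination, with overlap at the lowest DMSO array. Its signals were 4008.5, 3902.2 and 4048.9 with ABT-869 and 3800.8, 3489.5 and 3497.6 with SAHA, within the DMSO range. PARS2 had 286.6, 267.7 and 296.4 with DMSO and 205.6, 398.9 and 259.3 with Combination, so that the treated arrays spread to both sides. With ABT-869 it gave 291.3, 298.7 and 230.7, and with SAHA 363.1, 355.9 and 419.4, all above DMSO without passing (0.42, adjusted p = 0.339). RARS1 was higher on every Combination array (3915.8, 3602.5 and 3131.3) than with DMSO (2957.9, 2696.4 and 2602.4), a change of 0.36 that did not pass (adjusted p = 0.312). The same held with SAHA (3802.5, 3733.4 and 3991.3, at 0.48, adjusted p = 0.154), and with ABT-869 it read 2992.4, 1856.5 and 2157.0, overlapping DMSO. YARS2 was lower on every Combination array (785.2, 789.3 and 817.7) than with DMSO (888.5, 1056.7 and 1051.6), at −0.32 (adjusted p = 0.434). With ABT-869 it was lower too (733.7, 685.4 and 850.0), and with SAHA it spread to both sides of DMSO (1169.3, 702.6 and 764.1). KARS1 signals in MOLM-14 were 19032.2, 20320.1 and 18232.6 with DMSO, 23440.0, 21208.8 and 19091.6 with ABT-869, 17825.3, 17570.1 and 17401.8 with SAHA, and 18854.5, 17066.9 and 17767.7 with Combination. Its SAHA arrays alone were clear of DMSO, and no change passed (0.14, −0.12 and −0.10).

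Combination was also set against each drug alone, as the study looked for genes that need both. Against ABT-869 in MV4-11, 3 cytosolic members (RARS1, WARS1 and FARSA) and 2 mitochondrial members (MARS2 and CARS2) were higher and none was lower, where 3.70% of all probe sets passed. Against ABT-869 in MOLM-14, WARS1 and SARS1 were higher, and AARS1, FARSB, VARS1, LARS1, SARS2 and WARS2 were lower, where 8.03% of all probe sets passed. WARS2 signals there were 681.6, 772.6 and 663.9 with ABT-869 and 452.3, 512.1 and 439.4 with Combination, without overlap (−0.59, adjusted p = 0.0266). They were 668.1, 543.9 and 599.6 with DMSO and 539.7, 447.5 and 525.8 with SAHA. Leaving out any MV4-11 array lowered the 5 calls in that line to 2 or 3. In MOLM-14 the 8 calls came down to 2 without ABT-869 replicate 2 or Combination replicate 3, to 4 without ABT-869 replicate 1 or 3 or Combination replicate 1 or 2, and to 5 without a DMSO array or SAHA replicate 3. Against SAHA no member passed in either line by limma. Of all probe sets 0.749% passed by limma in MV4-11 and 0.0146% in MOLM-14. At an unadjusted p under 0.05, a limit at which all probe sets were not counted, 11 members were higher in MV4-11 and 1 was lower in MOLM-14. Limma-trend called 8 members in MV4-11 and 0 in MOLM-14. Of all 54613 probe sets, limma-trend called 1243 lower and 1002 higher in MV4-11, and 194 lower and 62 higher in MOLM-14.

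The lines differed in their responses, as tested by an interaction over all 24 arrays. For Combination, 10 cytosolic and 8 mitochondrial members passed, where 6.55% of all probe sets did. Taking MOLM-14 minus MV4-11, the difference was above 0 for WARS1 (1.29), CARS1 (0.89), SARS1 (0.75), GARS1 (0.61) and YARS1 (0.60), each of which had a change below 0 in MV4-11. It was below 0 for RARS1 (−1.16), FARSA (−0.93), VARS1 (−0.91), FARSB (−0.61) and HARS1 (−0.55) among cytosolic members. It was also below 0 for each of the 8 mitochondrial members that passed, led by PARS2 (−1.13), YARS2 (−1.06) and VARS2 (−0.85). The VARS2 difference lost its call in 20 of 32 alternative runs, the SARS2 one in 13 and the CARS2 one in 12. The VARS1 difference lost its call in 1 of 32 alternative runs, and its smallest size over them was −0.41 (limma, adjusted p up to 0.45). The median difference was −0.61 over the mitochondrial members and −0.10 over the cytosolic ones, beside 0.04 for all probe sets. With SAHA, WARS1 (1.49), SARS1 (1.18), CARS1 (0.90), YARS1 (0.79) and GARS1 (0.78) passed, where 1.23% of all probe sets did, and with ABT-869, WARS1 (1.34) and YARS1 (0.82) passed, where 0.352% did. AARS1, which fell with Combination in both lines, did not differ between them by this test (0.45, adjusted p = 0.0872). Without the arrays that stood apart the 18 calls for Combination became 10, of which 3 were mitochondrial.

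**Figure D4:**
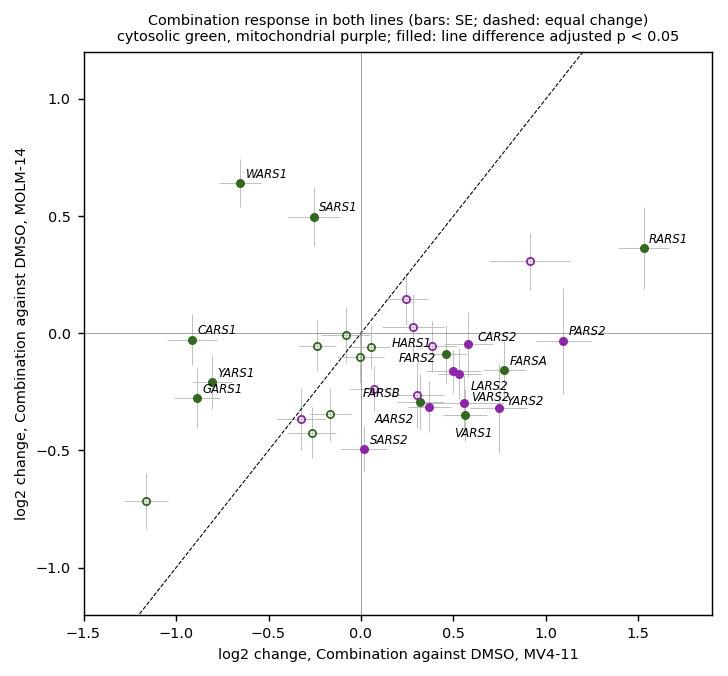
Log2 change with Combination against DMSO in MV4-11 (x axis) and MOLM-14 (y axis) for each member, with SE bars; cytosolic genes are green, mitochondrial genes purple, and filled, named points have a line difference with an adjusted p under 0.05. WARS1 (−0.65 and 0.64) lies in the upper left, and RARS1 (1.53 and 0.36) and PARS2 (1.09 and −0.03) lie at the far right.

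With DMSO alone the lines already differed in 11 members. In MOLM-14, WARS1 (−0.84), SARS1 (−0.69), YARS1 (−0.67), AARS1 (−0.52), GARS1 (−0.50) and CARS1 (−0.48) were lower, and RARS1 (0.75), FARSA (0.70), HARS1 (0.43), YARS2 (1.12) and LARS2 (0.75) were higher, where 10.1% of all probe sets passed. The 6 lower genes were all cytosolic, and their signals in MOLM-14 with DMSO were for example 2291 ± 65.5 for WARS1 and 3937 ± 465 for YARS1 (SD, n = 3), against 4097 ± 105 and 6218 ± 67.5 in MV4-11. These differences share the DMSO arrays with the treatment comparisons and are no independent result beside them. The median of all probe sets was −0.15 here. Centring each array on its median moved it to 0.11, with 758 of 54613 probe sets lower and 5355 higher. In that setting 1 cytosolic member was lower, 3 were higher, and 6 mitochondrial members were higher.

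**Figure D5:**
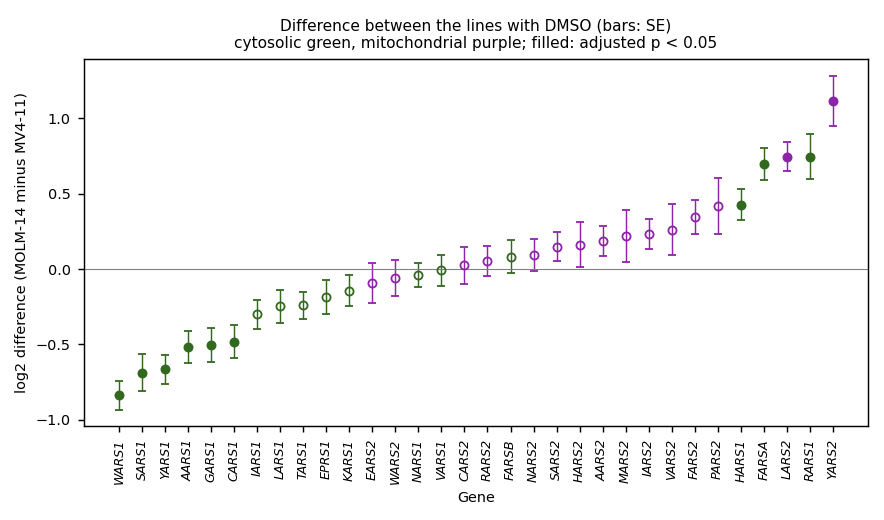
Log2 difference of the signal with DMSO, MOLM-14 minus MV4-11, for the 32 members in order, with SE bars; cytosolic genes are green, mitochondrial genes purple, and filled points have an adjusted p under 0.05. WARS1 (−0.84) lies at the low end and YARS2 (1.12) at the high end, with 6 filled points below 0, all green.

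Genes that act beside the synthetases were read from lists of known function. Of 10 regulators and targets of the response to amino acid shortage, 6 fell in MV4-11 with ABT-869, 7 with SAHA and 8 with Combination, and none rose, where 0.491%, 0.996% and 4.05% of all probe sets fell. With Combination ATF5, a factor made downstream of ATF4, changed by −3.72 (SE 0.209), CHAC1, a glutathione-degrading enzyme, by −5.17 (SE 0.356), TRIB3, a pseudokinase induced by ATF4, by −2.80, and DDIT3, a stress factor, by −2.58, while ATF4 itself changed by −0.73 (adjusted p = 0.00609). In MOLM-14 none passed with ABT-869 or SAHA by limma (3 lower and none higher at an unadjusted p under 0.05 in each case), and with Combination ATF5 (−0.97) and TRIB3 (−0.56) fell, where 2.80% of all probe sets fell. CHAC1 had wider changes in MOLM-14 that did not pass, at −2.29 with ABT-869 (adjusted p = 0.402), −2.14 with SAHA (adjusted p = 0.0677) and −2.27 with Combination (SE 0.581, adjusted p = 0.0536). With DMSO alone, 9 of the 10 genes were already lower in MOLM-14 than in MV4-11 and none was higher. The median difference was −1.57, with ATF5 at −2.61, where 10.1% of all probe sets differed in either direction. The bearing of this starting level on the responses was not tested.

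Of 8 genes induced by interferon gamma, the stimulus that also raises WARS1, none passed with ABT-869 in MV4-11 (2 lower at an unadjusted p under 0.05). IRF1 fell there with SAHA (−0.64), and IRF1 (−0.48), TAP1 (−0.73) and CXCL10 (−0.84) fell with Combination. Of all probe sets 0.491% fell with ABT-869, 0.996% with SAHA and 4.05% with Combination. In MOLM-14 GBP2 rose with SAHA (0.81, adjusted p = 0.0194), where 2.74% of all probe sets rose, and none passed with ABT-869 or Combination. Of 6 translation elongation factors, TUFM and TSFM, which are mitochondrial, rose in MV4-11 with SAHA (0.56 and 0.59) and with Combination (0.83 and 1.12). None fell, and 1.47% and 4.89% of all probe sets rose. GFM1, also a mitochondrial factor, did not pass with either treatment. With SAHA the other 4 of the 6 factors, GFM1 among them, had changes below 0. AIMP1, a scaffold of the multi-synthetase complex, fell with Combination in MV4-11 (−0.51), as did SEPSECS (−0.66), which completes the charging of the selenocysteine transfer RNA, and ELAC2, which trims transfer RNA ends, rose (0.94). None of the 4 genes that complete mitochondrial glutaminyl and formylmethionyl transfer RNA passed against DMSO in either line, with at most 2 higher at an unadjusted p under 0.05 in a comparison.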

How the data were processed

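RNA from 24 samples of the MV4-11 and MOLM-14 lines, 3 per group, was hybridised to Affymetrix U133 Plus 2.0 arrays, 1 array per sample. The authors deposited linear intensity values, 1 per probe set, after background correction, summary over probes and scaling to a common trimmed mean (software not given in the sources used here). Values under 1 (0.209%) were set to 1 before conversion to log2. Of 54675 probe sets 62 controls were left out. Tests came from limma 3.58.1 in R 4.3.3, fitted over the 12 arrays and 4 groups of a line, or over all 24 arrays and 8 groups for differences between lines, with Benjamini-Hochberg adjustment over 54613 probe sets and a threshold of 0.05. The study's methods name no test and keep genes past a fold threshold that were unique to Combination in both lines. With 3 arrays per group, the smallest two-sided p of an exact permutation test is 0.1.

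Genes were named from GEO's platform annotation of the probe sets. The members, the gene lists, the site letters searched and the rule for the genes shown were chosen with earlier results of these data known. Signals on every array are given for the 3 largest falls and 2 largest rises that passed per treatment and line, the 4 largest line differences of the Combination response, and WARS1, WARS2, GARS1 and KARS1. Promoter windows were taken from RefSeq (GRCh38.p14); YARS1, LARS1, VARS1, AARS2 and VARS2 had none in the table used. The alternatives were quantile normalization, centring on array medians, limma-trend, a gene's second probe set, removal of dim probe sets, raising low values to 32, a block for the replicate number, a single fit to both lines, and removal of each array in turn. Leaving out the 4 arrays that stood apart was chosen after seeing the data. The fits were tested on simulated data. The number of arrays limits the precision: the median SE of a member's log2 change was 0.129 in MV4-11 and 0.116 in MOLM-14.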

Additional observations from a re-analysis of the deposited data

Results flagged for a closer look

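The response to a drug differed between the lines, by an interaction in limma over all 24 arrays, in 25 results; each value is the log2 change in MOLM-14 minus that in MV4-11, and groups of 3 arrays were too small for a test of single outlying arrays. With ABT-869 these were WARS1 (1.34) and YARS1 (0.82). With SAHA they were WARS1 (1.49), SARS1 (1.18), CARS1 (0.90), YARS1 (0.79) and GARS1 (0.78). With Combination the cytosolic members above 0 were WARS1 (1.29), CARS1 (0.89), SARS1 (0.75), GARS1 (0.61) and YARS1 (0.60). Those below 0 were RARS1 (−1.16), FARSA (−0.93), VARS1 (−0.91), FARSB (−0.61) and HARS1 (−0.55). The mitochondrial members were PARS2 (−1.13), YARS2 (−1.06), VARS2 (−0.85), LARS2 (−0.71), AARS2 (−0.68), FARS2 (−0.66), CARS2 (−0.63) and SARS2 (−0.51). WARS1 differed with an adjusted p of 2.7e-05 for SAHA and 2.1e-05 for Combination, and its second probe set gave calls in the same direction. Of the 25 calls 7 were kept in every alternative, for WARS1 (3), CARS1 (2), FARSA and RARS1. Among the others, the smallest Combination difference over the alternatives was −0.41 for VARS1, −0.25 for FARS2 and −0.20 for CARS2. Their adjusted p from limma reached 0.45, 0.741 and 0.803. The VARS2 call was lost in 20 of 32 alternatives and the SARS2 call in 13.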

How the results depend on the processing

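Of 83 calls over all comparisons 27 were kept in every alternative, and of the 33 against DMSO 12 were. With ABT-869 in MV4-11 the 4 members called became 2 after centring arrays on their medians, 10 without dim probe sets, 12 with limma-trend or a floor of 32, 1 with the replicate block, 2 without the arrays that stood apart and 1 to 4 when 1 array was left out. With SAHA in MV4-11 the 9 became 14 without dim probe sets or with limma-trend, 15 with a floor of 32 and 4 to 9 with 1 array left out; with Combination the 14 became 8 to 14. In MOLM-14 the 3 with SAHA became 6 without dim probe sets, with limma-trend or with a floor of 32, and 0 to 3 with 1 array left out. The 3 with Combination became 7 in 1 fit over all arrays, 10 without dim probe sets, with limma-trend or with a floor of 32, 5 after quantile normalization, 1 without the arrays that stood apart and 2 to 4 with 1 array left out. For Combination against ABT-869 in MV4-11 the 5 became 9 in 1 fit, without dim probe sets, with limma-trend or with a floor of 32, 2 with the replicate block, 3 with second probe sets, 1 without the arrays that stood apart and 2 to 3 with 1 array left out. In MOLM-14 the 8 became 4 after centring, with the replicate block or without the arrays that stood apart, 15 without dim probe sets, 17 with limma-trend or a floor of 32, and 2 to 6. Combination against SAHA in MV4-11 went from 0 to 5 in 1 fit, 7 without dim probe sets, 8 with limma-trend and 6 with a floor of 32. The departure in MV4-11 went from 1 to 5 in 1 fit or without dim probe sets, 8 with limma-trend, 6 with a floor of 32, and 0 after centring, with the replicate block, with second probe sets or without the arrays that stood apart, and 0 to 1 with 1 array left out. Line differences went from 2 to 8 without dim probe sets or with limma-trend, 7 with a floor of 32, 1 with second probe sets and 2 to 3 with 1 array left out for ABT-869. For SAHA they went from 5 to 10 without dim probe sets or with a floor of 32, 9 with limma-trend, 3 with second probe sets and 4 to 6 with 1 array left out, for Combination from 18 to 10 without the arrays that stood apart and 12 to 18, and for DMSO from 11 to 10 to 12. The numbers called over all probe sets moved with the setting as well. With ABT-869 in MV4-11 they were 268 lower and 203 higher by limma, 1067 and 1090 with limma-trend, and 210 and 54 after centring. From limma to limma-trend, SAHA in MV4-11 went from 544 lower and 801 higher to 1592 and 2129. In MOLM-14 SAHA went from 1410 and 1494 to 3002 and 3135, and Combination from 1530 and 1723 to 3015 and 3300. Combination against ABT-869 in MOLM-14 went from 1936 and 2447 to 3499 and 4067. The departure in MV4-11 went from 4 and 8 to 301 and 203. The cause of these shifts was not tested.

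A second probe set reversed 9 values: YARS1 in MV4-11 (0.23 with ABT-869, 0.035 with SAHA, 0.52 with Combination) and between lines (−0.24, −0.41 and −0.21), SARS1 with SAHA in MOLM-14 (−0.21), CARS2 for Combination against ABT-869 in MV4-11 (−0.32) and FARSB for it in MOLM-14 (0.061). No label says that replicate numbers mark a shared culture. Deviations of same-numbered arrays correlated at a median of 0.064 in MOLM-14 and −0.014 in MV4-11 (−0.19 to 0.328), which does not show a pairing and does not exclude one; the numbers were not used as pairs. Gene signals are measured on dim as well as bright probe sets, and 3 arrays per group leave changes near 0.5 on the log2 scale close to the threshold.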
